A study of Mus musculus with 8 samples.

Results

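Natural killer (NK) cells were 830 of the 32457 leukocytes that carry a cluster name from the authors, or 2.56%. They were taken as all cells of the cluster named NK and were joined by barcode to the unique molecular identifier (UMI) counts of their library. The study asked by scRNA-seq how leukocytes of the brain and its coverings respond to stroke, induced in male C57BL/6 mice by transient middle cerebral artery occlusion (MCAO). The 8 libraries hold CD45iv-CD45+ cells, meaning leukocytes that an antibody injected into the blood had not stained, from brain parenchyma, pia mater and dura mater. Untreated control mice gave 1 library per tissue, mice at 24 h after MCAO gave 2 libraries of brain parenchyma and 1 each of pia and dura, and mice at 72 h gave 1 library of brain parenchyma. All animals were wild type, with no transgene, and the study states that replicate experiments were pooled for each compartment. How many mice stand behind each library is not given in the sources used here, so p-values measure the spread between libraries, which may be technical. The comparisons below ask where NK cells of the parenchyma differ from those of the meninges, how they differ 24 h after MCAO, and whether T cells (Tc) of the same libraries do the same.

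NK cells are innate lymphocytes that kill stressed or infected cells without an antigen receptor of their own. They weigh signals from activating and inhibitory receptors, release granules with perforin and granzymes onto their target, and recruit other leukocytes with chemokines and interferon-γ. Tissues also hold innate lymphoid cells of group 1 (ILC1), which share many of these genes but use chemokine receptors and integrins of resident cells in place of the markers of circulating, mature NK cells.

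Both genes by which the cluster was named were highest in it. Gzma (ENSMUSG00000023132), the gene of granzyme A, averaged 2545 ± 1521 CPM (the UMIs of a gene scaled to 1 common total for every library) in NK cells (SD, n = 6 libraries with at least 20 NK cells) and ranked first of 21 clusters, with Tc next at 61.3 ± 39.3 CPM (n = 8 libraries). Nkg7 (ENSMUSG00000004612), which encodes a protein of cytotoxic granules, also ranked first, at 3463 ± 1260 CPM (n = 6), but Tc followed closely at 2597 ± 1144 CPM (n = 8). The third cluster for Nkg7, of proliferating cells, was at 143 CPM, so Nkg7 was high in NK cells and Tc alike. Between these clusters the mean of Gzma differed more than that of Nkg7, although many NK cells held no Gzma UMI, as described below. Because the cluster was named by these genes, their ranks describe it and do not test how well either gene separates NK cells from Tc.

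The windows of 250 bases upstream of the annotated starts of 4 effector genes are shown, of which Nkg7 and Gzma name the cluster and Gzmb and Ccl3 are described below. They come from the RefSeq table on the mouse build GRCm38.p6 and are written 5′ to 3′ on the strand of the gene. Capitals mark matches, on either strand, to motifs named for families of factors that act in NK cells: T-box (AGGTGTGA), Runx (TGTGGT) and AP-1 (TGANTCA).
Nkg7, chr7:43436888-43437137, + strand: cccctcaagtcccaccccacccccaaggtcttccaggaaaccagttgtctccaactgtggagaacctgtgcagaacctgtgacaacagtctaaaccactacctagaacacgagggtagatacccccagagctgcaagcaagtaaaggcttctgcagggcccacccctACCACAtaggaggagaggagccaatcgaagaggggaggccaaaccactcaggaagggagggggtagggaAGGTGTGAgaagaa
Gzma, chr13:113100982-113101231, - strand: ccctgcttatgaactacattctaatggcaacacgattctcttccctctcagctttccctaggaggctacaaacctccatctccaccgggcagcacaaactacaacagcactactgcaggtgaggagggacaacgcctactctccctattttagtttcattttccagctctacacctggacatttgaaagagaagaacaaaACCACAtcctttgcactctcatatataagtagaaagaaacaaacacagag
Gzmb, chr14:56262335-56262584, - strand: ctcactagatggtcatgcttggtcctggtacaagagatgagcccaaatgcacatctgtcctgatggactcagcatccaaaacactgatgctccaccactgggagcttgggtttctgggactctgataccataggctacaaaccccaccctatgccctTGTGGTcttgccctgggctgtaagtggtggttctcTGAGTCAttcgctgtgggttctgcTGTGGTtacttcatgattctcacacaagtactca
Ccl3, chr11:83649379-83649628, - strand: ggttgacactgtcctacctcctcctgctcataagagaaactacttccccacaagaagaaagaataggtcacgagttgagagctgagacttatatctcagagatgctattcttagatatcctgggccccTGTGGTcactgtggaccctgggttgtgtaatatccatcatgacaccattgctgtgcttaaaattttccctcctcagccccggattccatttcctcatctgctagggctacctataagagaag
These windows hold the Runx letters, which are in 14.0% of 32851 windows of this length. Of the other windows searched, those of Ncr1 and Prf1 hold them and those of Klf2 and Eomes do not. The T-box letters are in the Nkg7 window, at position -14 from the start, and in 1.12% of all windows. The AP-1 letters are in the Gzmb window, at position -58, and in 6.75% of all windows. A match is a description of the sequence and not a site shown to be bound.

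Among all annotated cells, NK cells were few in the parenchyma of control mice and most frequent in the dura. They were 16 of 4297 cells in control brain, or 0.372% (exact Clopper-Pearson 95% interval 0.213 to 0.604%). Control pia held 46 NK cells, a share of 1.64% (1.20 to 2.18%), and control dura held 141, a share of 5.02% (4.24 to 5.89%). These control intervals of the 3 tissues do not overlap, and they cover counting error only. Outside the microglia clusters the NK share was 2.84% (1.63 to 4.57%) in control brain, 1.83% (1.34 to 2.43%) in control pia and 5.11% (4.32 to 6.00%) in control dura. On that base brain was not below pia, and its interval overlaps those of both other tissues.

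At 24 h after MCAO, the NK share was 3.06% of 3922 cells in pia (2.54 to 3.65%) and 5.42% of 4518 cells in dura (4.78 to 6.12%). The 2 brain libraries at 24 h went different ways: replicate 1 held 16 NK cells of 4582, or 0.349% (0.200 to 0.566%), and replicate 2 held 96 of 3468, or 2.77% (2.25 to 3.37%). At 72 h, brain held 150 NK cells of 6049, or 2.48% (2.10 to 2.90%). Replicate 1 thus lies at the level of control brain, and replicate 2 near that at 72 h.

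The difference between 24 h and control was 1.42 percentage points in pia (95% counting interval 0.708 to 2.14), 0.407 points in dura (-0.636 to 1.45) and, with the mean of the 2 replicates, 1.19 points in brain (0.847 to 1.53). In brain it was 2.40 points with replicate 2 alone and -0.0232 points with replicate 1 alone. Outside the microglia clusters, the difference was 0.933 points in brain (-0.595 to 2.46), 1.51 points in pia (0.726 to 2.30) and 0.407 points in dura (-0.654 to 1.47). An exact two-sided sign-flip permutation test over the 3 tissues gave p = 0.25, the smallest value that 3 tissues allow. The difference depended on depth. Among cells with at least 1000 UMIs it was 2.16 points in brain (1.64 to 2.68) and 0.690 points in pia (-0.0731 to 1.45). In dura it was -0.819 points there (-1.98 to 0.340), and the sign-flip permutation test gave p = 0.75. Among lymphoid cells alone (B cells, Tc, NK, γδ T cells and ILC2), the NK share ranged from 10.4% in dura at 24 h to 23.5% in control brain, and at 24 h it was 1.43 points lower in brain, 4.14 points higher in pia and 2.39 points lower in dura than in the controls (two-sided sign-flip permutation p = 1). There were 36.5 to 72.2 NK cells for every 100 Tc, lowest in control pia and highest in brain at 24 h replicate 2.

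**Figure D1:**
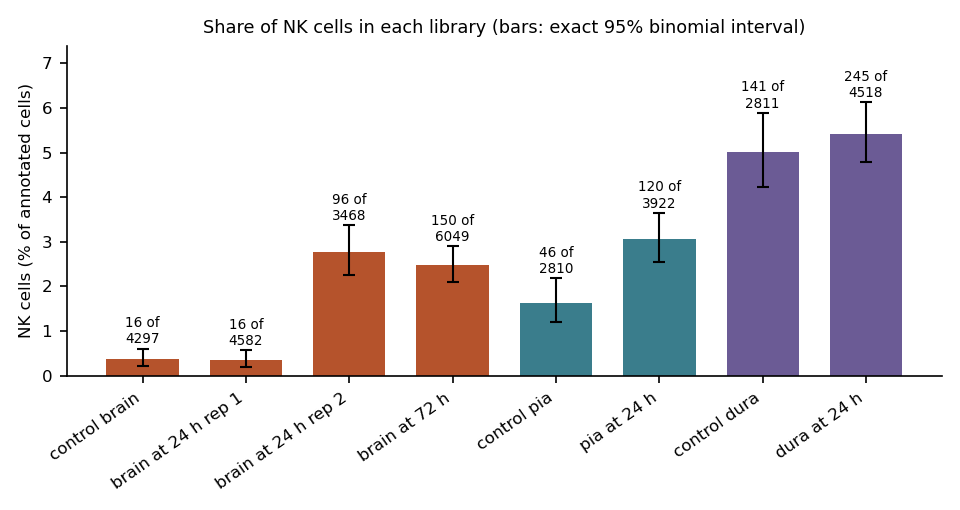
NK cells as a percentage of the annotated cells of each of the 8 libraries, with 1 bar per library, coloured by tissue, and whiskers for the exact 95% interval of counting error. The control share is lowest in brain (0.372%) and highest in dura (5.02%), and the 2 brain libraries at 24 h lie far apart (0.349% and 2.77%).

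The depth per NK cell set what could be compared. The median NK cell held 965 to 2157 UMIs by library and every NK cell held at least 500, but the summed NK counts ranged from 23087 UMIs in control brain and 23222 in brain at 24 h replicate 1 to 252735 in dura at 24 h. In these 2 small brain libraries 1 UMI is worth 43.3 and 43.1 CPM, and a count of 0 allows up to 129.9 and 129 CPM. Replicate 2 of brain at 24 h and the brain library at 72 h were counted against a shorter gene list than the other 6, and they stand apart in NK cells and Tc alike: their summed MHC class I genes were at 9167 and 9851 CPM in NK cells against 15245 to 21464 CPM in the other libraries. Brain cells were also isolated differently, with a shorter digestion and a density gradient that pia and dura did not get, so tissue and preparation cannot be told apart. Control pia is titled as brain in its labels but given as pia mater by its tissue field, which was followed. No barcode was an NK cell in both of any pair of libraries, and pairs of libraries shared at most 32 annotated barcodes.

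NK receptors and granule genes set NK cells apart from Tc of the same libraries. These ratios are descriptions without a test, because the clusters were made from the same genes. The mean log2 ratio of NK to Tc (0.5 counts added to each sum, SD over 6 libraries) was 6.75 ± 1.41 for Gzmc, 6.73 ± 1.47 for Klra4, 6.72 ± 1.17 for Klra8 and 6.41 ± 1.07 for Ncr1, the activating receptor NKp46. Klra4, Klra8 and Klra9 belong to the Ly49 family of receptors for MHC class I molecules, and Klra9 followed at 6.12 ± 0.95. Gzma was at 5.22 ± 1.01. The other genes among the 10 highest were Styk1, Klrb1b, Klri2 and Klrb1a, at 4.86 to 5.27.

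The sums behind these ratios are near 0 in Tc, so the ratios depend on the counts added. In NK cells Ncr1 was at 823 CPM in control brain, 431 and 384 CPM in the 2 brain libraries at 24 h, 486 CPM in brain at 72 h, 483 and 152 CPM in control and 24 h pia, and 555 and 249 CPM in control and 24 h dura. In Tc it did not exceed 11 CPM in any library. Ncr1 therefore separates the clusters in all 8 libraries without overlap.

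The genes furthest below Tc were Cd8b1 (-6.33 ± 1.76), Tnfrsf4 (-6.16 ± 1.97), Gm8369 (-5.74 ± 1.22), Cd8a (-5.41 ± 1.81) and Cd5 (-4.87 ± 0.85), followed by Cd6, Slfn1, Ifi27l2a, Trac and Cd4 at -4.76 to -4.02. Cd8a and Cd8b1 form the coreceptor of cytotoxic Tc, and Trac is the constant chain of the T cell receptor alpha. Among 3392 genes with at least 50 CPM in either cluster, 146 were at least 2-fold higher and 86 at least 2-fold lower in NK cells with the same sign in 6 of 6 libraries, and the median of all was 0.06 on the log2 scale.

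By list, 21 of the 26 NK receptors and adaptors that reached this level were at least 2-fold higher and none was lower, with a median log2 ratio of 3.17. Of the granule and death ligand genes, 7 of 16 were higher (Gzma, Gzmb, Gzmc, Prf1, Ctsw, Serpinb6b, Serpinb9) and 1, Gzmk, was lower. Of the cytokines and chemokines 3 of 10 were higher: Xcl1, the ligand of a receptor on cross-presenting dendritic cells, Ccl4 and Tgfb1. Irf8 and Tbx21 were the higher ones among 19 lineage transcription factors, and Lef1, Tcf7 and Bcl11b the lower ones.

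**Figure D2:**
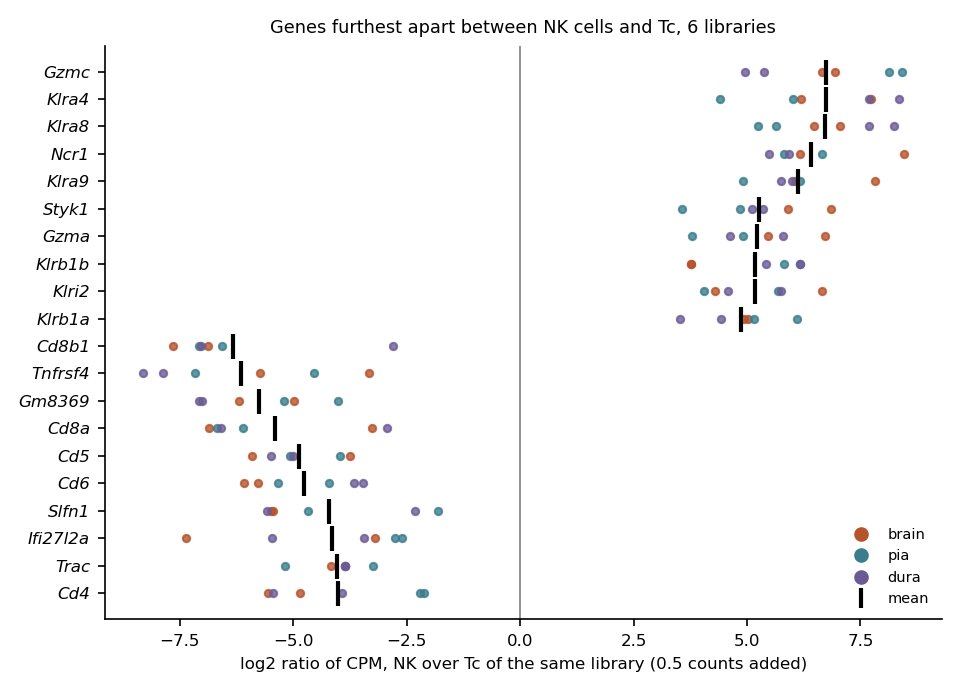
Log2 ratio of NK to Tc CPM in the same library for the 10 genes furthest above and the 10 furthest below 0; points are the 6 libraries, coloured by tissue, and black bars their means. The ratios run from 6.75 for Gzmc to -6.33 for Cd8b1, and each gene keeps 1 sign over the 6 libraries.

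T cell genes were lower in NK cells but not absent. Of 22 T cell genes at this level, 16 were at least 2-fold lower and 2 were higher, Trdc and Tcrg-C4, which encode constant parts of the γδ T cell receptor. The summed T cell genes were at 2233 to 4895 CPM in NK cells and 7627 to 15331 CPM in Tc. A UMI of Cd3d, Cd3e, Cd3g, Trac or Trbc2 was found in 36.5 to 68.8% of NK cells by library, in 87.2 to 100% of Tc and in 0.498 to 6.53% of myeloid cells, and after thinning each cell to 500 UMIs in 21.9 to 45.7% of NK cells and 0.113 to 2.47% of myeloid cells. The myeloid cells had median depths of 1033 to 2680.5 UMIs, and the free RNA of these libraries was not measured. Cd3g alone was at 177 to 909.6 CPM in NK cells and 639 to 2357 CPM in Tc, while Cd8a was at 0 in 6 of 8 NK sums. What part of the cluster this signal comes from was not tested.

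NK cells of the parenchyma differed from those of pia and dura in many genes. The brain libraries with at least 20 NK cells were the 2 with the shorter gene list. In the fit described next, the 72 h library is matched by its own time term. The brain level there rests on brain at 24 h replicate 2 alone, so its p-values measure the spread of the pia and dura libraries and none between brain libraries. In the fit of the 6 libraries with at least 20 NK cells (edgeR, tissue and time as terms, 1 residual degree of freedom), 404 of 4757 genes were higher in pia than in brain (8.49%) and 762 lower (16%), where a call means a 2-fold or larger difference with p under 0.05 after Benjamini-Hochberg adjustment. For dura against brain 526 were higher (11.1%) and 886 lower (18.6%). Scaling by library size alone in place of TMM moved the median log2 difference of all genes from -0.09 to 0.17 in pia and from -0.08 to 0.17 in dura, and the splits to 612 higher and 569 lower in pia and to 776 higher and 666 lower in dura.

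Tissue and gene list cannot be told apart in that fit, so calls were also read from 2 others. One took all 8 libraries, with the 2 brain libraries of 16 NK cells each. The other, chosen after seeing the data, took the 6 libraries with the longer gene list, which are control and 24 h of each tissue. Pia and dura are compared with the same brain libraries, so their differences from brain are not independent. Of 2151 genes tested in all 3 fits, 17 were higher in pia than in brain in each (0.79%) and 7 were lower (0.325%), and 36 were higher in dura than in brain (1.67%) and 9 lower (0.418%). The genes named next were chosen by these calls, after their values were seen. Where libraries of different tissues are said below not to overlap, this describes genes so chosen and adds no support to the calls. The share of all genes without overlap is not given here.

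NK cells of pia and dura had less RNA of Ccl3, Ccl4, Fos, Jun, Klf6 and Klf2 than those of the parenchyma, in both tissues and in all 3 fits. Crem, Dnaja1, Ifrd1, Ube2b, Gpr132, Samsn1, Hilpda, Higd1a and Ifitm2 were higher in both, and so was another chemokine, Ccl7, with at most 1 UMI in NK cells of each brain library and 95 to 331 CPM in those of the meninges. In Tc, Ccl7 was at 0 to 44.7 CPM in brain and 143 to 368 CPM in the meninges. Among the lists, these calls make up 2 of 9 cytokines and chemokines, 3 of 16 immediate early genes and 1 of 13 lineage transcription factors on the lower side in each tissue. The part of free RNA or of mixed droplets in these differences, lower or higher and with Ccl7 included, was not tested.

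Klf2 (ENSMUSG00000055148) encodes a transcription factor that keeps lymphocytes quiescent and drives the receptors by which they leave tissue. In NK cells it was at 1733 CPM in control brain, 1766 and 1696 CPM in the 2 brain libraries at 24 h and 1939 CPM in brain at 72 h. It was at 96.7 and 214 CPM in control and 24 h pia and at 263 and 253 CPM in control and 24 h dura. The brain and meningeal libraries do not overlap, and the 4 brain libraries lie close together although 2 hold only 16 NK cells. The log2 difference of pia from brain was -3.51 ± 0.25 in the fit of 6 libraries, -3.33 ± 0.53 with 8 and -3.37 ± 0.30 with the longer list (SE; adjusted p = 2.26e-41, 0.0006 and 5.13e-25), and that of dura from brain was -2.90 ± 0.22, -2.60 ± 0.50 and -2.80 ± 0.26. With 8 libraries, the call was lost when either library of the same meningeal tissue was left out (adjusted p = 0.260 and 0.224 for pia without its control or 24 h library, 0.192 and 1.00 for dura), though the values stayed at -3.98 to -2.32 over all left-out libraries and both tissues.

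Klf2 also fell further in NK cells than in Tc. In Tc it was at 786 to 1542 CPM in brain, 619 and 566 CPM in pia and 607 and 616 CPM in dura. The test of the difference of the tissue effects, with the library as a block, gave -2.77 ± 0.31 for pia in the fit of 6 libraries, -2.43 ± 0.32 with 8 and -1.99 ± 0.34 with the longer list (adjusted p = 1.17e-15, 1.41e-10 and 8.37e-06). For dura it gave -2.17 ± 0.27, -1.80 ± 0.27 and -1.46 ± 0.29 (adjusted p = 5.06e-12, 1.05e-07 and 0.000497). Klf2 was the single gene called in all 3 fits for pia, of 3733 tested (0.0268%), and with Emb one of 2 for dura (0.0536%). In the fit of 6 libraries alone 7 genes (0.119% of 5866) were called for pia and 5 (0.0852%) for dura. Leaving out each of the 8 libraries in turn kept the pia value for Klf2 between -3.24 and -1.93, called each time. The dura value ran from -2.10 to -1.22 and was not called without dura at 24 h.

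Ccl3 and Ccl4 encode chemokines that draw other leukocytes. Ccl4 was at 3205 CPM in NK cells of control brain, 2928 and 2637 CPM in brain at 24 h, 3981 CPM in brain at 72 h, 608 and 414 CPM in control and 24 h pia, and 488 and 344 CPM in control and 24 h dura. Ccl3 was at 736, 388, 754 and 849 CPM in the same order of brain libraries, and at 55.2, 96.7, 44.8 and 19.8 CPM in the meningeal ones. Both genes separate the 4 brain libraries from the 4 meningeal ones without overlap. The Ccl4 difference was -2.95 ± 0.20, -2.51 ± 0.50 and -2.62 ± 0.22 for pia and -3.23 ± 0.19, -2.81 ± 0.50 and -2.93 ± 0.21 for dura in the 3 fits. That of Ccl3 was -3.51 ± 0.35, -2.99 ± 0.54 and -2.69 ± 0.54 for pia and -4.94 ± 0.37, -4.35 ± 0.58 and -4.15 ± 0.57 for dura.

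Tc of the same libraries showed the Ccl4 difference from a lower level, with 447 to 849.7 CPM in brain and 117 to 193 CPM in pia and dura. The extra fall in NK cells did not pass the test for Ccl4 (dura -0.66 ± 0.28 with 6 libraries, -0.89 ± 0.28 with 8 and -1.14 ± 0.32 with the longer list, adjusted p = 0.922, 0.456 and 0.112) nor for Ccl3. Ifng, the gene of interferon-γ, had 336 and 535 CPM in NK cells of the brain libraries with the shorter list and 23.7 to 96.7 CPM in the meninges, but only 3 UMIs in each of the other 2 brain libraries, so it was not measured with precision there.

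Fos and Jun encode the subunits of AP-1, whose RNA rises within minutes of a stimulus. Fos was at 1559, 1464, 1983 and 1345 CPM in NK cells of control brain, brain at 24 h replicates 1 and 2 and brain at 72 h, and at 152 to 241 CPM in the 4 meningeal libraries. Jun was at 649.7 CPM in control brain, at 1369 to 2214 CPM in the other brain libraries and at 152 to 325 CPM in the meninges. Klf6 was at 819.7 to 1142 CPM in brain and 151 to 289 CPM in the meninges. Tc of the same libraries moved alike, with Fos at 1067 to 1566 CPM in brain and 165 to 327 CPM in pia and dura, and none of the 3 differed between NK cells and Tc in the test of the difference (adjusted p = 0.294 or higher in each fit and tissue). The digestion time differs with the tissue, and its part in these genes was not tested. No other immediate early gene was called in all 3 fits, and the median log2 difference of the 16 tested was -0.50 for pia and -0.03 for dura with the longer list, against 0.03 and 0.05 over all genes.

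Crem, a modulator of cyclic AMP responsive transcription, was near 0 in NK cells of the brain and abundant in those of the meninges. It had 0, 1, 8 and 12 UMIs in the 4 brain libraries, at most 58.9 CPM, and was at 912 and 1264 CPM in control and 24 h pia and at 1188 and 1424 CPM in control and 24 h dura. The difference was 4.81 ± 0.35, 5.15 ± 0.59 and 5.59 ± 0.64 for pia and 5.08 ± 0.34, 5.42 ± 0.59 and 5.82 ± 0.60 for dura in the 3 fits, and with 8 libraries it was called whichever library was left out. Tc followed the same pattern, at 0 to 246 CPM in brain and 659.7 to 814 CPM in the meninges.

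Dnaja1, a co-chaperone of the Hsp70 family, was at 412 to 693 CPM in brain NK cells and 1889 to 2172 CPM in meningeal ones. Ifrd1, an interferon-related regulator of transcription, was at 86.6 to 226 CPM against 594 to 684 CPM. Hilpda, which hypoxia induces and which guards lipid droplets from breakdown, was at 43.1 to 69.7 CPM against 275 to 621 CPM. None of these 3 overlaps between the brain and meningeal libraries. Tnfrsf9, the costimulatory receptor 4-1BB, was called for pia alone in all 3 fits, with 61 to 129.9 CPM in brain, 442 and 359 CPM in pia and 219 and 158 CPM in dura.

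**Figure D3:**
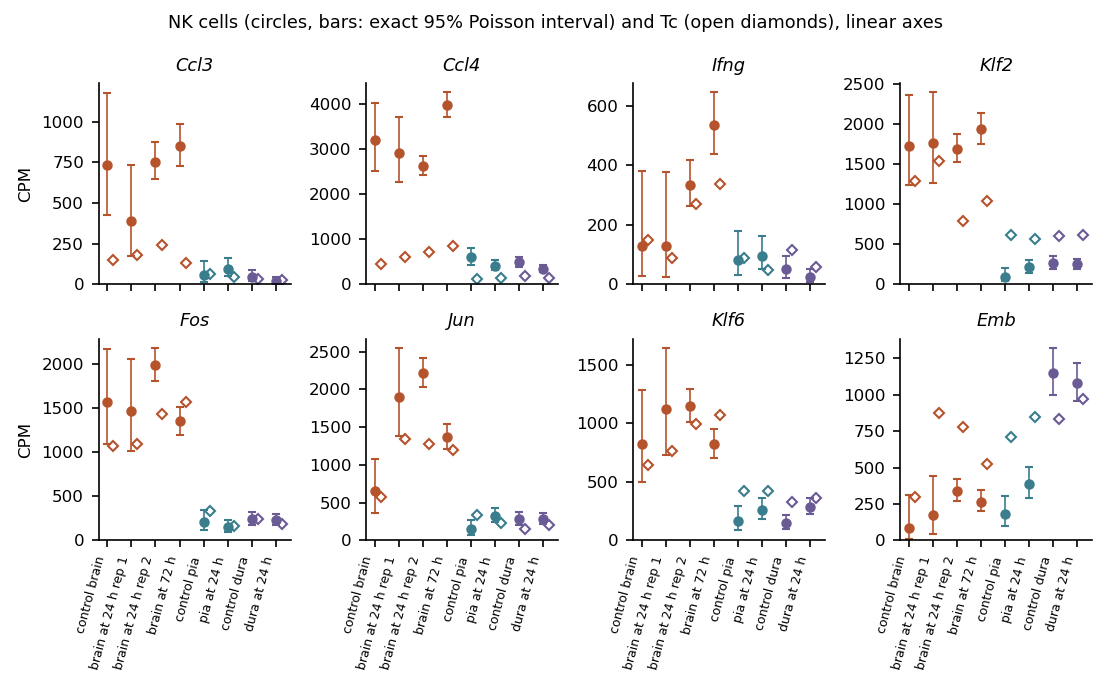
NK cells (filled circles, with exact 95% Poisson bars) and Tc (open diamonds) of each library, in CPM, for Ccl3, Ccl4, Ifng, Klf2, Fos, Jun, Klf6 and Emb. Klf2 lies at 1696 to 1939 CPM in NK cells of the 4 brain libraries and at 96.7 to 263 CPM in those of pia and dura, while in Tc it lies at 566 to 619 CPM in the meninges.

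Emb, Rora and Ifngr1 were called in all 3 fits for dura against brain, and not in all 3 for pia. Emb encodes embigin, a surface partner of lactate transporters. It was at 1149 and 1080.2 CPM in control and 24 h dura, 179.6 and 387 CPM in pia and 86.6 to 340.0 CPM in brain. Dura and brain did not overlap, and the difference was 1.49 ± 0.24, 2.46 ± 0.50 and 3.06 ± 0.42 in the 3 fits (adjusted p = 5.73e-09, 0.00534 and 7.88e-11). It exceeded that in Tc, where Emb was at 833 and 973 CPM in dura and 298 to 872 CPM in brain, by 1.53 ± 0.27, 1.73 ± 0.31 and 2.54 ± 0.52 (adjusted p = 3.32e-05, 4.6e-05 and 0.000762). Rora, a factor of innate lymphoid cells, was at 0 to 56.7 CPM in brain, 96.7 and 235 CPM in pia and 151 and 261 CPM in dura, so pia and dura overlapped (1.94 ± 0.41, 2.30 ± 0.61 and 3.16 ± 0.95 for dura). Ifngr1, a chain of the interferon-γ receptor, was at 731 to 1593 CPM in brain, 2320.4 and 2941 CPM in pia and 3390.4 and 4087 CPM in dura (2.09 ± 0.17, 2.05 ± 0.46 and 1.64 ± 0.20).

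Genes of other cells moved with the same contrast. In all 3 fits 5 of 14 myeloid marker genes tested were higher in pia and in dura than in brain (Apoe, Cd74, H2-Aa, H2-Ab1 and Lyz2), and Spp1 was lower in dura. Lyz2 was at 0, 43.1 and 13.1 CPM in NK cells of control brain and of the 2 brain libraries at 24 h, 893 CPM in brain at 72 h and 439 to 801 CPM in the meninges, and in Tc at 554 to 1279 CPM in the meninges. The 33 myeloid markers together made up 2162 to 6930 CPM of NK cells in brain, 5109 to 6574 CPM in pia and 5369 to 8114 CPM in dura, and 2599 to 13667 CPM of Tc. Igkc, an immunoglobulin gene of B cells and plasma cells, was at 375 and 427 CPM in dura NK cells, 477 and 518 CPM in dura Tc and at most 27.6 CPM in NK cells of brain and pia. The part of free RNA or of mixed droplets in these differences was not tested.

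None of the 26 NK receptors and adaptors and none of the 13 granule genes tested passed in all 3 fits for pia or dura against brain, nor did any trafficking, T cell, inhibitory checkpoint, interferon response, glycolysis and hypoxia, MHC class I or RNA quality gene. Over all genes, 0.79% passed as higher and 0.325% as lower in pia, and 1.67% and 0.418% in dura, and nothing is read from these counts. Stmn1, a tubulin regulator of dividing cells, was higher in pia (1 of 6 cell cycle genes), Dnaja1 was the heat shock gene that passed in each tissue (1 of 8), and Ifngr1 (1 of 14 cytokine receptors and signal transducers), Emb (1 of 10 NK maturation and ILC1 genes), Rora (1 of 13 lineage factors) and Igkc (1 of 3 B cell, mast cell and ILC2 markers) were higher in dura. Mitochondrial UMIs made up 1.79 to 2.61% of NK counts by library.

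The 5 largest differences in each direction of the fit of 6 libraries include genes that follow the gene list. For pia they were Ube2v1, Cd83, Rnasek, Ccl7 and Rab4a on the higher side and Sparc, Nek9, Hbb-bs, Gm4070 and Zc3h18 on the lower side. For dura they were Ngp, Cd83, Ube2v1, Iglc1 and Rnasek against Apol7e, Gm42418, Ptp4a1, 9930111J21Rik2 and Rapgef2. Of these, Ccl7 was called in all 3 fits for pia and Ngp for dura. Rnasek, Gm42418 and Ptp4a1 are among 21 genes at least 20-fold apart between the libraries of the 2 gene lists. Leaving such genes out moved the calls from 1166 to 1155 for pia and from 1412 to 1400 for dura. With the longer gene list the dura difference turned to -0.25 for Rnasek and -0.21 for Ube2v1.

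Ccl5 differed between the clusters by tissue. It encodes RANTES, a chemokine of cytotoxic lymphocytes, and was the most abundant of the cytokine genes here, at 17196, 17613, 9407 and 9512 CPM in NK cells of the 4 brain libraries against 9029.8, 11401, 4408 and 4171 CPM in Tc. In control and 24 h pia it was at 7583 and 12304 CPM in NK cells and at 9749 and 11428 CPM in Tc, and in control and 24 h dura at 8255 and 8147 CPM against 7296 and 9930.0 CPM. The NK level thus lay above the Tc level in the 4 brain libraries and near it in the meninges. The difference of the tissue effects was -1.20 ± 0.17 for pia and -1.08 ± 0.17 for dura in the fit of 6 libraries (adjusted p = 1.9e-07 and 4.09e-06). It had adjusted p of 0.000611 or lower in the other 2 fits too, but stayed under 2-fold there, at -0.95 and -0.81 for pia and -0.82 and -0.73 for dura.

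Few genes differed between dura and pia NK cells, and Gzmb was one of them. The fit of 6 libraries called 40 of 4757 genes (0.841%), 23 of them higher in dura, and 27 of the genes were also called with the longer gene list. With 8 libraries 4 were called, and 3 genes passed in all 3 fits (0.139% of 2151): Gzmb and Spp1 lower and Igkc higher in dura. Dura at 24 h was made with another kit version than control dura and both pia libraries, and with the earlier kit alone, at a minimum of 10 cells, no gene was called in edgeR, with 36 at an unadjusted p under 0.05.

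Gzmb encodes granzyme B, which triggers apoptosis in the target. It was at 2707 and 1816 CPM in NK cells of control and 24 h pia and at 516 and 281 CPM in control and 24 h dura, with 1949, 904, 697 and 1659 CPM in the brain libraries. Pia and dura did not overlap, and the difference was -2.52 ± 0.16, -2.55 ± 0.50 and -2.56 ± 0.17 in the 3 fits (adjusted p = 1.35e-50, 0.0243 and 1.17e-46). In Tc, Gzmb was at 222 and 239.5 CPM in pia and at 185 and 125 CPM in dura. A Gzmb UMI was found in 65.2 and 51.7% of NK cells in control and 24 h pia and in 17 and 18.4% in control and 24 h dura, and after thinning to 500 UMIs in 47.8, 32.5, 13.5 and 12.2%. Myeloid cells of these libraries had it in at most 0.428%, at median depths of 1880.5 to 2320 UMIs against 965 to 1453.5 UMIs in NK cells. With 8 libraries the call was lost when brain at 72 h or either pia or dura library was left out (adjusted p = 0.0833 without brain at 72 h), with values of -2.73 to -2.23. Against brain, the dura effect on Gzmb differed from that in Tc in the fit of 6 libraries (-2.98 ± 0.45, adjusted p = 9.17e-08) and not with 8 libraries (-1.35 ± 0.67) or the longer list (-0.28 ± 0.37, adjusted p = 1 in both).

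Gzmc, a granzyme of strongly stimulated cells, was at 815 and 532 CPM in pia and 168 and 23.7 CPM in dura (-2.98 ± 0.26 with 6 libraries, -3.03 ± 0.62 with 8 and -3.02 ± 0.28 with the longer list, adjusted p = 8.96e-25, 0.0763 and 1.72e-24). Klra9, Pdcd1, Tnfrsf9, Stmn1 and Tuba1b were also lower in dura in the fits of 6 libraries and of the longer list, by 1.04 to 1.84 on the log2 scale. Pdcd1, the inhibitory receptor PD-1, was at 276 and 255 CPM in pia and 84.1 and 67.3 CPM in dura.

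Eomes, the T-box factor that NK cells need to mature and that ILC1 lack, was higher in dura. It had 2 and 1 UMIs in control and 24 h pia, or 27.6 and 6.9 CPM, and 134 and 146 CPM in dura (3.29 ± 0.60 with 6 libraries, adjusted p = 1.97e-05, 3.26 ± 0.83 with 8, adjusted p = 0.239, and 3.23 ± 0.68 with the longer list, adjusted p = 0.000293). Pia also had less Eomes RNA than brain with 8 libraries (-3.46 ± 0.85, adjusted p = 0.0394). Klra4 was at 55.2 and 96.7 CPM in pia and 280.2 and 269 CPM in dura, and Klra8 at 138 and 55.2 CPM against 280.2 and 249 CPM. Klra4 and Klra8 were called in the fits of 6 libraries and of the longer list (1.73 ± 0.34 and 1.63 ± 0.34 in the first) and not with 8 libraries, opposite in direction to their relative Klra9. Emb, Hes1 and Smad7 were called on the same side in the same fits. The 5 largest in each direction were Iglc1, Camp, Igkc, Retnlg and Cma1, of which all but Cma1 are genes of plasma cells or neutrophils, against Ptgds, Spp1, Gzmc, Hist1h2ap and Gzmb.

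**Figure D4:**
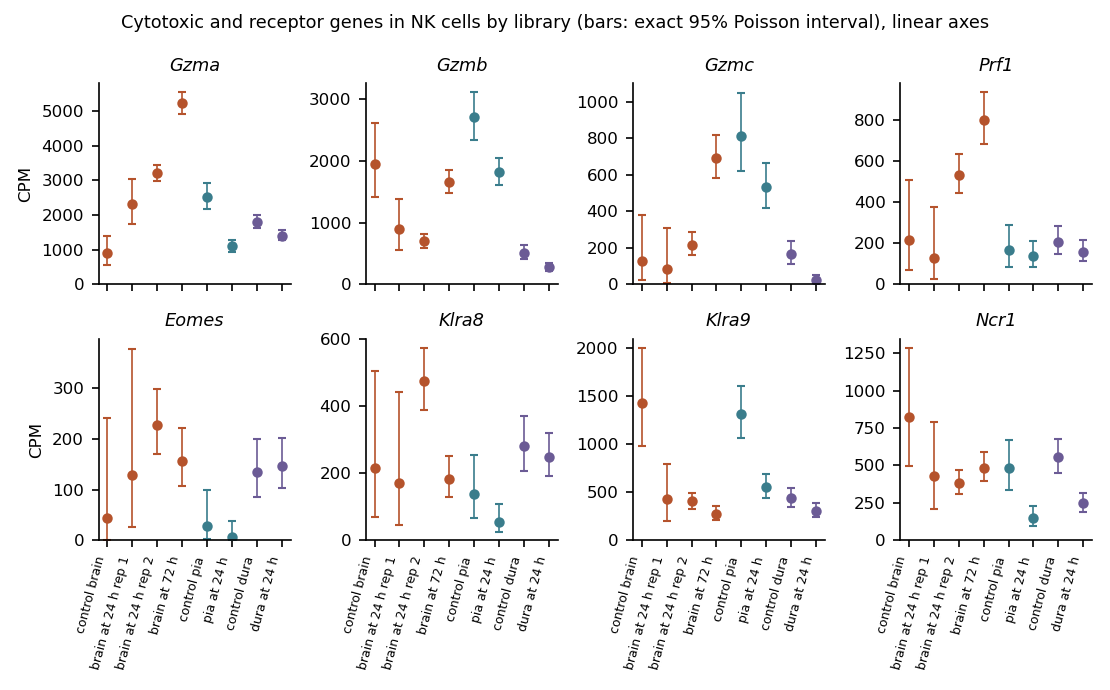
Level in NK cells of each library, in CPM on linear axes with exact 95% Poisson bars for counting error, of Gzma, Gzmb, Gzmc, Prf1, Eomes, Klra8, Klra9 and Ncr1. Gzmb is at 2707 and 1816 CPM in pia NK cells and at 516 and 281 CPM in dura, and Eomes at 27.6 and 6.9 CPM against 134 and 146 CPM.

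At 24 h after MCAO, few NK genes differed from control. The fit of 6 libraries called 26 of 4757 genes (0.547%), 8 higher and 18 lower, and rests on pia and dura, since control brain had too few NK cells to enter. The fit with the longer gene list, which adds control brain and brain at 24 h replicate 1, called 28 of 2152 (1.3%), and 19 genes were shared by both. The fit of 8 libraries called none of 4751 (0%), with 106 at an unadjusted p under 0.05, and DESeq2 called none in the 6 or the 8 libraries, with 16 and 38 at an unadjusted p under 0.05. The kit version of dura changed between control and 24 h, and with the earlier kit alone, at a minimum of 10 cells, edgeR called none, with 47 at an unadjusted p under 0.05.

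Ncr1, given above, was lower at 24 h than in control in pia (483 to 152 CPM) and in dura (555 to 249 CPM), and the 2 brain libraries at 24 h, at 431 and 384 CPM, lay below control brain, at 823 CPM and 19 UMIs. The difference was -1.34 ± 0.23 with 6 libraries and -1.29 ± 0.22 with the longer list (adjusted p = 5.28e-06 and 3.09e-06) and -1.17 ± 0.36 with 8 (adjusted p = 0.999). It was lower in all 4 pairs of a 24 h library with the control of its tissue, of which the 2 brain pairs share control brain and are not independent.

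Ccr2, a receptor for the chemokine that draws cells from blood, was at 318 and 347 CPM in control pia and dura and at 104 and 131 CPM at 24 h (-1.49 ± 0.28 with 6 libraries, adjusted p = 3.36e-05, -1.20 ± 0.41 with 8, adjusted p = 0.999). Control brain was at 347 CPM and the 2 brain libraries at 24 h at 258 and 174 CPM. Gzmc, Bst2, an interferon-induced tether of virus particles, and the dividing-cell genes Stmn1 and Tubb5 were also lower in both fits that made calls. Actb fell from 5594 to 1864 CPM in pia and from 5744 to 2065 CPM in dura (-1.54 ± 0.10, adjusted p = 3.55e-44), and in Tc it was at 7584 and 3119.7 CPM in control and 24 h pia and at 4736 and 2767 CPM in dura. The genes higher at 24 h in both fits were Sf3b3, Arrb2, Tecpr1 and Lilrb4a, of which Lilrb4a encodes an inhibitory receptor (1.32 ± 0.29 with 6 libraries, adjusted p = 0.00157). The other genes among the 5 largest in each direction were Ccdc117 on the higher side and Ms4a4c, Atf7ip, Serpinb1a and Ifi203 on the lower side, where Actb was the fifth.

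By list in the fit of 6 libraries, 2 of 9 cell cycle genes, and 1 each of 27 NK receptors, 17 granule genes, 16 trafficking genes and 17 interferon response genes, were called lower at 24 h, where 0.547% of all genes were called in either direction. The fit of 8 libraries called none of them. The median log2 difference was -0.80 for the interferon response genes, -0.75 for the cell cycle genes, -0.36 for the NK receptors and -0.37 for the granule genes, against 0.01 over all genes tested. No gene of the cytokine, lineage factor, maturation, T cell, checkpoint, immediate early, heat shock, glycolysis and hypoxia, MHC class I, myeloid, B cell or RNA quality lists was called there. The myeloid markers had a median of -0.60.

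The 24 h difference was not shown to depart from that in Tc. The test of the difference called none of 5866 genes in the fit of 6 libraries (0%, 227 at an unadjusted p under 0.05), and DESeq2 called none either. With 8 libraries 1 of 5811 genes was called (0.0172%) and with the longer list 1 of 3776 (0.0265%), in both Spp1, the gene of osteopontin, at -4.60 and -5.22. Spp1 was at 1646 CPM in NK cells of control brain, from 38 UMIs, and at 258 and 196 CPM in brain at 24 h, and without control brain no gene was called. In Tc it was at 0 CPM in control brain and 849 and 158 CPM in brain at 24 h.

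Brain at 72 h differed from brain at 24 h in the myeloid genes Lyz2 and Apoe in the fits of 6 and of 8 libraries, and in Gzmb and Gzmc in the fit of 6 libraries alone. The 72 h time point is 1 library, made with another kit version than the brain libraries at 24 h, so time, kit and library cannot be told apart. The fit of 6 libraries, which compares it with replicate 2 alone and takes the spread from the pia and dura libraries, called 28 of 4757 genes (0.589%), 20 higher and 8 lower. Ifi27l2a, Ccl6, Cd83, Lyz2 and Apoe were the 5 largest on the higher side and Ccl1, Sft2d1, Rsf1, Srpk1 and Gpi1 on the lower side. With 8 libraries 2 of 4751 were called (0.0421%), the myeloid genes Lyz2 (6.00 ± 0.68, adjusted p = 3.45e-06) and Apoe (3.96 ± 0.58, adjusted p = 0.000306). Apoe was at 86.6 CPM in NK cells of control brain, 129 and 100.3 CPM at 24 h and 1330.2 CPM at 72 h, and in Tc at 44.7 and 151 CPM at 24 h and 622 CPM at 72 h. Gzma was at 5227 CPM at 72 h against 2325 and 3204 CPM at 24 h and 909.6 CPM in control brain, and Prf1, the gene of perforin, at 800.1 CPM against 129, 532 and 217 CPM. Gzma passed the adjusted p but not the fold in the fit of 6 libraries (0.69 ± 0.16, adjusted p = 0.00322), and Prf1 passed neither. Gzmb (1.24 ± 0.20), Gzmc (1.65 ± 0.28) and Ly6c2 (1.13 ± 0.29) were called higher and Klra8 (-1.40 ± 0.30) lower there, and none of the 4 with 8 libraries (adjusted p = 1 each).

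NK cells were mixed in Gzma itself. A Gzma UMI was found in 25% of NK cells in control brain, 31.2 and 59.4% in the brain libraries at 24 h, 65.3% in brain at 72 h, 23.9 and 28.3% in control and 24 h pia and 34 and 26.1% in control and 24 h dura. After thinning to 500 UMIs these shares were 18.8, 31.2, 50, 60, 15.2, 20.8, 26.2 and 22.9%. The 2 brain libraries with the shorter gene list held the highest shares. In myeloid cells the share was at most 0.937% and in Tc at most 4.42%, at median depths of 1033 to 2680.5 and 888 to 1912 UMIs.

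NK cells with and without a Gzma UMI differed in other genes within the same library. This is given as a description, since cells were split by a gene that also defined the cluster and since detection depends on depth. Of the 6 libraries with at least 20 NK cells, control pia alone had a higher median depth in cells with Gzma than in cells without. The medians were nearly equal in control dura, and cells with Gzma were the shallower ones in the remaining libraries. Among the 6 libraries with at least 20 NK cells, the cells with Gzma were higher in 6 of 6 in Eomes, Klra4, Klra8, Klra9, Gzmb and Klf2, though Eomes had 1 UMI with Gzma and 1 or 0 without in the pia libraries. In brain at 24 h replicate 1, with 16 NK cells, Klra4 and Klra8 had 0 UMIs with Gzma and 1 and 4 without. The cells with Gzma were lower in 6 of 6 in Cxcr6, a receptor of resident lymphocytes, and in Il7r, Xcl1, Gzmc, Cd3g and Tcrg-C1. Of these, Tcrg-C1 had only 2 UMIs with Gzma and 26 without over the 6 libraries, and Il7r 11 and 64. Klra8 was at 104 to 801 CPM with Gzma and 24.2 to 161 CPM without. Cxcr6 was at 8.25 to 286 CPM with Gzma and 194 to 833 CPM without. Xcl1 was at 379.8 to 1924 CPM with Gzma and 1216 to 4363 CPM without.

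The tissue difference in Klf2 was present in both kinds of cell. Among cells with Gzma, Klf2 was at 2716 and 2838 CPM in brain at 24 h replicate 2 and at 72 h, and at 144 to 573 CPM in pia and dura. Among cells without Gzma it was at 554 and 618 CPM in those brain libraries and at 77.5, 84.6, 144 and 194 CPM in the meninges. Brain and meninges did not overlap in either kind, and the levels with Gzma were above those without in each library.

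**Figure D5:**
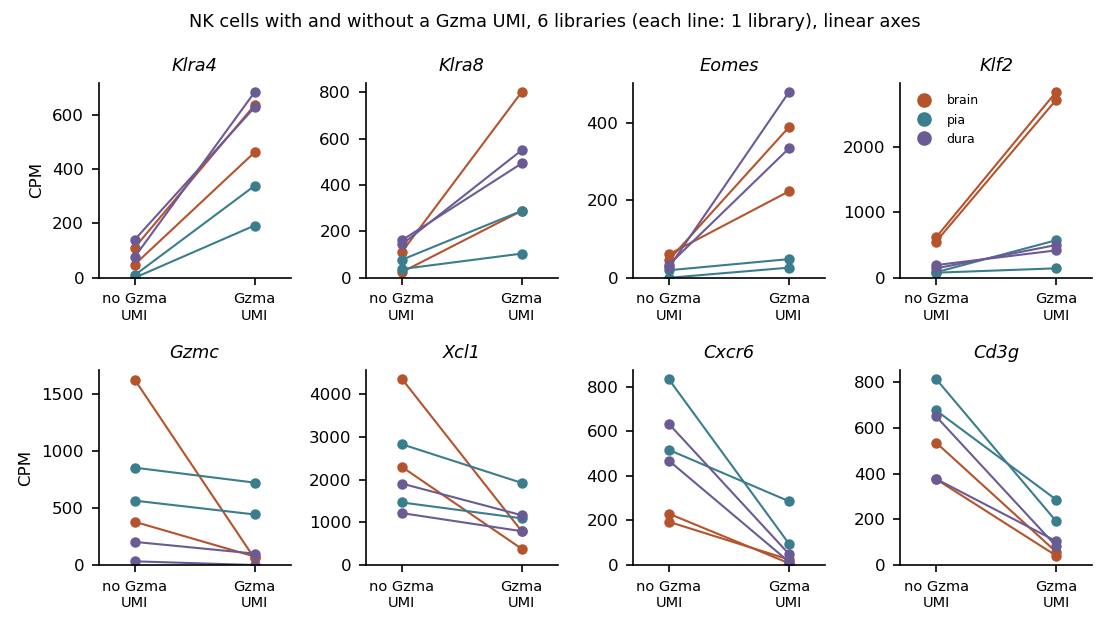
CPM of Klra4, Klra8, Eomes, Klf2, Gzmc, Xcl1, Cxcr6 and Cd3g in NK cells with and without a Gzma UMI, with lines joining both sums of the same library (6 libraries). Klra8, Eomes and Klf2 lie higher with Gzma, and Gzmc, Xcl1, Cxcr6 and Cd3g lie lower, in 6 of 6 libraries.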

How the data were processed

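Per the labels and the study's methods, the authors aligned the reads with Cell Ranger 6.0 to mm10 and deposited a matrix of UMI counts for each library. They also deposited cluster names and embedding scores for cells that had passed their filters on genes and mitochondrial share and a doublet caller. The cluster names were used and the scores were not, and no doublet caller was run again.

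Counts were summed per library and cluster over 30406 genes present in every gene list. Sums were tested with edgeR 4.0.16 (R 4.3.3, quasi-likelihood F test, TMM scaling, tissue and time as terms, Benjamini-Hochberg adjustment). Genes were called at a 2-fold or larger difference and an adjusted p below 0.05. An SE is the log2 difference divided by the square root of F. The difference between NK cells and Tc was fitted with the library as a block. With 6 libraries its spread, too, comes from pia and dura alone. The fit used libraries with at least 20 NK cells, and alternatives took a minimum of 10 or 30 cells, DESeq2 1.42.0, other scaling and filters, cells thinned to 500 UMIs and each library left out. Self-tests ran on simulated data. Named genes were those of 18 lists (369 genes, 368 found), the 5 largest calls in each direction that moved the same way in every pair, and the 10 highest and lowest NK to Tc ratios. A few genes are not reported here. The members, lists and comparisons were chosen with earlier results of these data known. Intervals at 95% cover counting error only.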

Additional observations from a re-analysis of the deposited data

Results flagged for a closer look

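The tissue effect in NK cells differed from that in Tc of the same libraries, by the test of the difference itself, for the following genes in the fit of 6 libraries. For pia against brain, the log2 difference between the effects was -3.85 for Cd74, -2.77 for Klf2, -2.42 for Gzma, -1.20 for Ccl5, 2.14 for Lgals3, 3.17 for Ikzf2 and 7.17 for Ifi27l2a. For dura against brain, it was -2.98 for Gzmb, -2.17 for Klf2, -1.08 for Ccl5, 1.53 for Emb and 3.33 for Gramd3. Of these, Klf2 in both tissues and Emb in dura were also called with 8 libraries and with the longer gene list.

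The effect of 24 h after MCAO differed between NK cells and Tc for Spp1, by -4.60 with 8 libraries and by -5.22 with the longer gene list. Without control brain, where 38 Spp1 UMIs were counted in 16 NK cells, it was not called.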

How the results depend on the processing

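The numbers of called genes depended on the libraries and the tool, and the cause was not tested. With DESeq2, a minimum of 10 cells and thinning to 500 UMIs, in that order, the calls were 0, 0 and 10 at 24 h against control (26 as reported), 137, 44 and 392 for pia against brain (1166), 146, 69 and 482 for dura against brain (1412), 3, 4 and 9 for dura against pia (40) and 2, 2 and 3 for 72 h against 24 h (28). For the differences from Tc they were 0, 4 and 3 in pia (7) and 0, 5 and 2 in dura (5), and 0, 1 and 0 at 24 h (0). Without the filter on low counts, 9 genes were called at 24 h and 12 at 72 h.

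Further alternatives at a minimum of 10 cells were chosen after seeing the data. In the order DESeq2, thinning, library size scaling, no filter on low counts, no cells with a T cell UMI and version 2 kit only, they called 0, 0, 1, 0, 11 and 0 genes at 24 h, 16, 27, 90, 63, 565 and 10 for pia against brain, 34, 73, 142, 106, 781 and 3 for dura against brain, and 1, 1, 9, 6, 19 and 0 for dura against pia. The differences from Tc gave 1, 2, 7, 3, 1 and 3 calls in pia and 0, 2, 9, 3, 2 and 3 in dura, and at 24 h 1 call with library size scaling, with no filter and with the version 2 kit. At 72 h the first 5 gave 2, 2, 4, 3 and 21. The longer gene list gave 58 calls for pia, 93 for dura, and 9 for the dura and 1 for the 24 h difference from Tc.

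Leaving out each of 8 libraries gave 0 to 22 calls at 24 h, 3 to 303 for pia, 5 to 421 for dura, 0 to 36 for dura against pia, 2 to 405 at 72 h (405 without brain at 24 h replicate 2), 0 to 1 for the 24 h difference from Tc, and 3 to 6 and 2 to 8 for those of pia and dura. Leaving out brain at 24 h replicate 2 or brain at 72 h from the 6 gave 28 to 29 at 24 h, 40 to 43 for dura against pia, 1081 for pia and 1316 for dura. The mean NK share difference ran from 0.602 to 1.41 points without a brain replicate, and that of brain was 2.40 points without replicate 1 and turned to -0.0232 points without replicate 2 and to -1.43 points among lymphoid cells.

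Without brain at 24 h replicate 2, at a minimum of 10 cells, the direction turned for Cd83 (-0.87, and up to 2.30 without another library) and Srpk1 (0.50, and down to -1.64) at 72 h, Gm42418 in dura (4.45, and down to -8.47 with 6 libraries) and Zc3h18 in pia (0.0503, and down to -7.70 with 6 libraries), and with the longer gene list for Rnasek (-0.25) and Ube2v1 (-0.21) in dura. Over 144 gene results and 3038 alternatives, 1791 kept the call, 1241 lost it and 6 turned. A minimum of 30 cells kept the same libraries. With at least 20 cells, the version 2 kit alone, leaving out cells with a T cell UMI and leaving out a pia or dura library left no residual degrees of freedom and were not run. No pairing of libraries by replicate number was possible, because replicate numbers exist for brain at 24 h alone. NK and Tc sums were blocked by their library, which is not a replicate number. The 2 brain libraries of 16 NK cells limit what can be detected there.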
